A study of Mus musculus with 6 samples.

Results

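The interferon-linked ADP-ribosyltransferases Parp9, Parp10, Parp11, Parp12 and Parp14, their relative Parp8, and the partner genes Dtx3l and Zc3hav1 were followed in mouse secondary follicles at 9 and 32 weeks of age. The members were taken as the probe sets whose single annotated gene symbol was one of these 8 names, which gave 12 probe sets of 7 genes among 34958 such probe sets of 18194 genes. The eighth gene, Parp10, had no probe set of its own, since its only one also carries the symbol of another gene, and it was not analysed here. RNA was measured in 6 samples from specific pathogen-free female C57BL/6J mice with no other treatment or allele, 3 of secondary follicles from young mice (9 weeks old) and 3 from old mice (32 weeks old), labelled as biological replicates. The paper raised the possibility that these mice had met a virus, and infection was not tested here. The follicles were dissected with needles and hold an oocyte together with its surrounding somatic cells. Fewer cells of a type and less RNA per cell therefore cannot be told apart. How many mice each sample pools is not stated, so the errors measure the spread between these samples.

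ADP-ribosyltransferases move ADP-ribose from NAD onto proteins or nucleic acids. Parp1, Parp2 and the tankyrases build chains of it, while most of the family adds single units or, as for the zinc-finger antiviral protein encoded by Zc3hav1, has lost the activity. Type I interferon induces a branch of the family, in which PARP14 and PARP9 carry macrodomains that bind ADP-ribose and PARP9 works in a complex with the ubiquitin ligase DTX3L. In the follicle, granulosa cells can mount an interferon response to viral nucleic acid.

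Values are log2 of the intensity that the authors obtained with RMA, which subtracts background, equalizes the distributions of the arrays and reduces the probes of a set to 1 value. Where a gene had several probe sets, the brightest over the 6 arrays stood for it. To be called, a gene needed a fold of 2 or more together with an adjusted p no larger than 0.05, from limma's moderated test over all 18194 genes, which are the thresholds of the study. The arrays were alike, with correlations over genes from 0.997 to 0.999 within an age and from 0.992 to 0.993 between the ages. The members were chosen with this contrast known, so their differences are a description, and neither their direction nor their count is evidence of its own.

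Within these 7 genes, at the brightest probe set of each, the difference between the ages was graded. For Parp14 and Parp11 its size depended on the probe set, with 1.13 and 0.67 log2 units at their dimmer ones. Parp14 and Parp9 were called higher in the old mouse ovarian secondary follicles, Dtx3l stayed under the fold of 2, Parp11 and Zc3hav1 had log2 fold changes of 0.27 and 0.25, and Parp12 and Parp8 were not higher. Thus 2 of 7 genes were called higher and none was called lower, where 0.638% of all genes were called higher and 0.126% lower. The 3 old values lay above the 3 young values in 5 of the 7 genes and below them in 1, against 18.9% and 23.7% of all genes. With the adjusted p alone, 5 of the 7 genes passed as higher and none as lower, against 10.1% and 13.3% of all genes. The median log2 fold change was 0.27 for the 7 genes and -0.00 for all genes, and these shares are not a result about the members because the contrast itself helped to choose them.

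Parp14 encodes a large mono-ADP-ribosyltransferase with macrodomains. Its brightest probe set (1451564_at) was at 5.28, 5.41 and 5.36 log2 units in the 3 young samples and at 7.47, 7.60 and 7.49 in the 3 old samples. The groups were far apart, and the replicates of each age spanned less than 0.2 log2 units. Its log2 fold change was 2.17 (standard error 0.06), a fold of 4.50, which ranked 25 among the 18194 genes. The second probe set of Parp14 (1432548_at) was much dimmer, at 3.99, 4.05 and 3.10 in the young and 4.79, 4.90 and 4.84 in the old samples. Young replicate 3 stood apart from the other two there, near the lower quartile of the arrays, which lay between 3.13 and 3.24. The log2 fold change of this probe set was 1.13 (standard error 0.23, from the fit over all probe sets), and without young replicate 3 it was 0.82 and no longer called.

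Parp9 encodes a macrodomain protein with little or no transferase activity of its own. It was measured by a single probe set, at 7.12, 7.10 and 7.02 log2 units in the young and 8.42, 8.68 and 8.52 in the old samples. All 3 old samples lay above the young samples by more than a log2 unit. The log2 fold change was 1.46 (standard error 0.08), a fold of 2.75 and rank 71 of all genes.

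Dtx3l, the ubiquitin ligase that pairs with PARP9, was higher in every old sample but by a smaller step. Its brightest probe set (1439825_at) was at 6.36, 6.39 and 6.47 in the young and 7.09, 7.24 and 7.16 in the old samples, a log2 fold change of 0.76 (standard error 0.06) and a fold of 1.69. The other probe set (1435208_at), almost as bright, was at 6.15, 6.28 and 6.45 in the young and 7.40, 7.09 and 7.27 in the old samples. Its log2 fold change was 0.96 (standard error 0.10, fit over probe sets), and it passed the fold of 2 after quantile normalization (1.02), after cyclic loess (1.03), without young replicate 3 (1.04) and without old replicate 2 (1.04). The difference in Dtx3l thus came close to the threshold on one probe set and stayed under it on the other. Its interval on the brightest probe set ran from 0.61 to 0.90, below that of Parp9, which ran from 1.28 to 1.64.

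**Figure D1:**
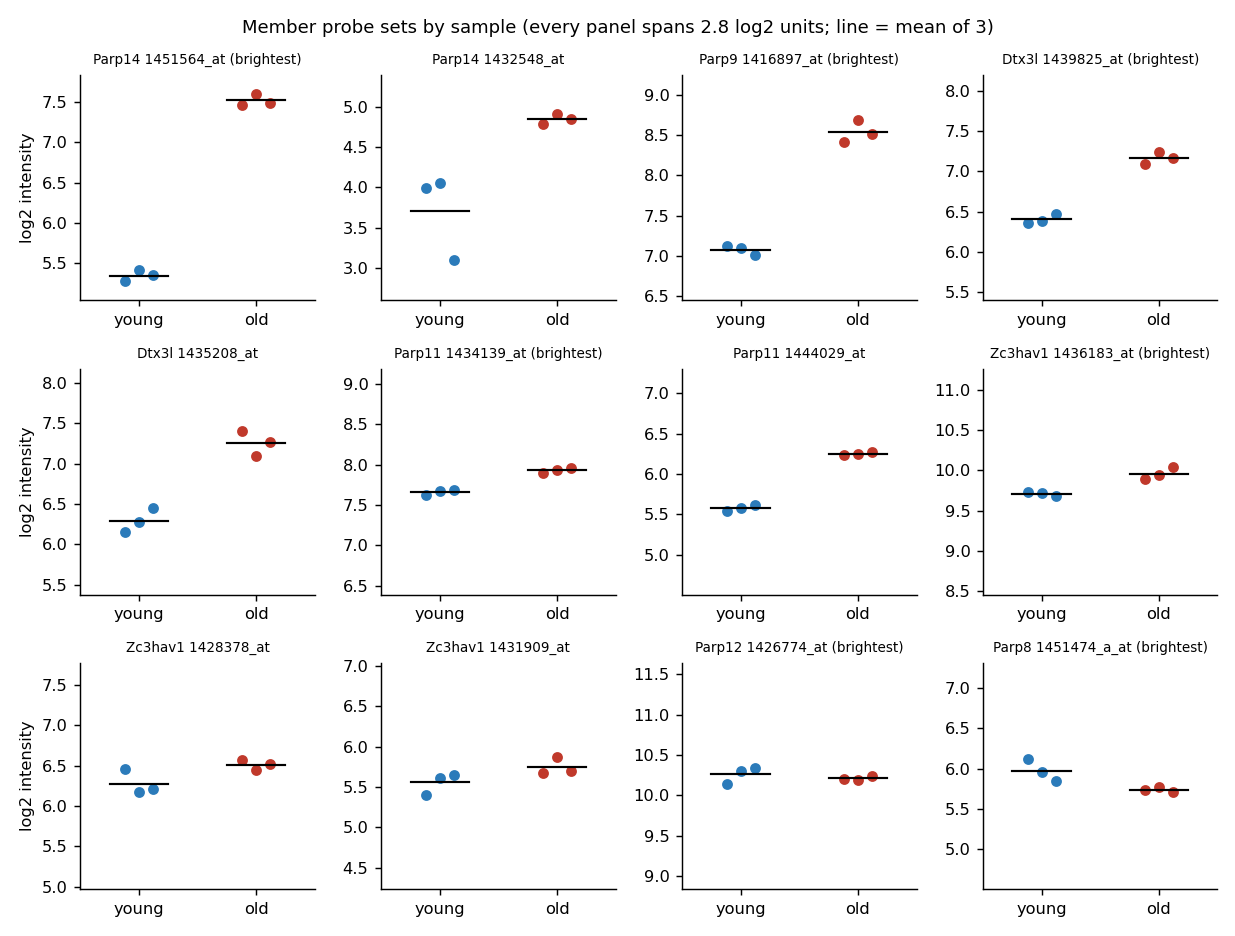
Log2 intensity (vertical axis, every panel spanning the same range of 2.8 log2 units) of the 12 member probe sets in the 3 young (blue) and 3 old (red) samples, each point being an array and each line the mean of an age group. The old points lie clear of the young points for Parp14, Parp9 and Dtx3l, and for the dimmer probe set of Parp11, by a small step for its brightest one, and overlap or nearly meet for Parp12 and most probe sets of Zc3hav1.

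Parp11, a mono-ADP-ribosyltransferase with a WWE domain, differed little at its brightest probe set (1434139_at), which was at 7.62, 7.67 and 7.69 in the young and 7.89, 7.94 and 7.95 in the old samples. The groups did not overlap, with a log2 fold change of 0.27 (standard error 0.05). Its dimmer probe set (1444029_at) was at 5.54, 5.58 and 5.62 in the young and 6.23, 6.24 and 6.27 in the old samples. That was a log2 fold change of 0.67 (standard error 0.06, fit over probe sets), 0.40 more than at the brightest, and the intervals of the 2 probe sets, from 0.14 to 0.40 and from 0.54 to 0.80, did not meet. The size of the difference in Parp11 therefore depended on the probe set read, and its mean over both was 0.47.

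Zc3hav1 encodes the zinc-finger antiviral protein, which binds CG-rich viral RNA and brings it to decay enzymes. Its brightest probe set (1436183_at) was at 9.73, 9.72 and 9.68 in the young and 9.90, 9.94 and 10.04 in the old samples, a log2 fold change of 0.25 (standard error 0.06) and a fold of 1.19. The dimmer probe sets had log2 fold changes of 0.24 (1428378_at, overlapping groups) and 0.19 (1431909_at, groups just apart). All 3 probe sets of Zc3hav1 thus gave a small positive difference, between 0.19 and 0.25, and none was called.

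Parp12, another interferon-linked mono-ADP-ribosyltransferase with zinc fingers of the same kind as Zc3hav1, was at 10.14, 10.30 and 10.34 in the young and 10.20, 10.19 and 10.24 in the old samples. The old values lay inside the range of the young values, and the log2 fold change was -0.05 (standard error 0.07). Its 95% interval ran from -0.21 to 0.10. Parp8, a further member of the family, was at 6.11, 5.96 and 5.84 in the young and 5.73, 5.77 and 5.70 in the old samples. It lay lower in the old samples without overlap, by a log2 fold change of -0.24 (standard error 0.08), and was not called.

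Counted by probe set, 3 of the 12 member probe sets were called higher and none lower, where 0.466% of all probe sets were called higher and 0.555% lower. The groups did not overlap in 9 probe sets with higher and 1 with lower old values, against 17.6% and 23.7% of all probe sets. With the adjusted p alone, 8 passed as higher and none as lower, against 8.95% and 13.9%. The nearest members on either side of the fold threshold were the dimmer probe set of Parp14 at 1.13, just inside, and the second probe set of Dtx3l at 0.96, just outside. On the same arrays, control probe sets differed between the ends of transcripts. The 3' minus 5' value of Gapdh was 0.47 ± 0.014 at 9 weeks and 1.51 ± 0.0048 at 32 weeks, and that of beta-actin was 1.48 ± 0.033 and 2.53 ± 0.050 (log2 units, SD, n = 3 each; exact two-sided permutation test, p = 0.1 for each, the smallest p this design allows). This difference runs with age, and at 1.04 log2 units for Gapdh and 1.05 for beta-actin it is as large as the fold of 2. Where the probe sets of a gene lie along its transcript was not analysed here. The part of this difference in the values of the members, the single probe set of Parp9 included, was not tested. Nor was its part in the gaps between probe sets of Parp11 and Parp14, or of Tiparp and Jak1 below.

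In the RefSeq order of protein-coding genes on chromosome 16, Parp14, Dtx3l and Parp9 are direct neighbours. The 6 genes around this cluster, chosen by position after the values were known, were not called, where 0.638% of all genes were called higher and 0.126% lower. With so few calls over all genes, uncalled neighbours are the usual case. On the side of Parp14, Hspbap1 had a log2 fold change of 0.11. Slc49a4 had -0.43 (adjusted p = 0.0096 from limma) and Sema5b -0.37 (adjusted p = 0.037), both lower without overlap, as were 23.7% of all genes. On the side of Parp9, Kpna1 had 0.15, Wdr5b -0.00 and Fam162a 0.14. Within this stretch the called genes were Parp14 and Parp9.

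Promoter sequence was at hand for 5 of the 8 genes in RefSeq's table for GRCm38.p6, Parp8, Parp11, Parp12, Dtx3l and Zc3hav1, while Parp9, Parp10 and Parp14 have no entry there. Each entry covers 250 bases before the gene start and 50 after it. It was searched on both strands for GAAA, any 2 bases and GAAA again, a core of the interferon-stimulated response element bound by the interferon-activated factor, and for TTCNNNGAA, the gamma-activated site, where N is any base. The first motif is found in 3.44% and the second in 8.30% of all 32851 promoters of this length. Of the members, Parp11 held a match to each, in the first of its entries. The stretch of Parp11 is shown because it holds these matches, and that of Dtx3l because Dtx3l lies beside Parp9 in the gene order and holds neither. Both are the last 150 bases before the gene start, 5′ to 3′ on the strand of the gene (Parp11 at chr6:127446690-127446839, plus strand, and Dtx3l at chr16:35939028-35939177, minus strand), with the match to the first motif in capitals.
Parp11: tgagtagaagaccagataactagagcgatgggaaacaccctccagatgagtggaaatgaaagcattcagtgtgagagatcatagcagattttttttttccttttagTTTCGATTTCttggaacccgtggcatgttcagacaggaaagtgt
Dtx3l: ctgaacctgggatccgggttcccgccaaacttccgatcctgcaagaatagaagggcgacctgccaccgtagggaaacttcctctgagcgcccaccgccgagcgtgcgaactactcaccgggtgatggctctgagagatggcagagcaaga
The capitals in Parp11, read on the opposite strand as the first motif, lie from position -44 to -35, where -1 is the base before the gene start. The gamma-activated site match overlaps them from -37 to -29. The entries of Parp8, Parp12 and Zc3hav1 and the other entry of Parp11 held neither motif, which says only that these letters are absent from these windows. For scale, of the 524 tested genes with the first motif in a promoter entry, 24 were called higher (4.58%) and none lower by limma, and of the 13929 without it, 58 were called higher (0.416%) and 13 lower. With the second motif, 14 of 1239 genes were called higher (1.13%) and 4 lower. Without it, 68 of 13214 were called higher (0.515%) and 9 lower. The called members Parp14 and Parp9 have no entry, so these shares do not cover them. A match is a description of the letters and not of binding.

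The genes around the members were read from lists written from general knowledge. Of 9 other PARP-family enzymes, none was called at its brightest probe set by limma or by SAM, the permutation-based test of the study, with 1 higher and 5 lower at p under 0.05 before adjustment. Over all genes, 16.9% were higher and 20.4% lower at that p, which is the share to set beside each such count. At both thresholds 0.638% of all genes were called higher and 0.126% lower, so a short list without a call is the usual case. The median log2 fold change of the 9 enzymes was -0.19. The members' median of 0.27 is not a like value, because this contrast helped to choose the members. Parp1, the main enzyme of the DNA damage response, was at -0.35 (standard error 0.05, adjusted p = 0.0033 from limma), the tankyrase Tnks at -0.35 (adjusted p = 0.020), Parp4 at -0.32 (adjusted p = 0.022) and Parp16 at -0.19 (adjusted p = 0.066). These values depended on the probe set, since with the probe sets of a gene averaged Parp1 was at -0.02, Tnks at -0.16 (adjusted p = 0.13 from limma) and Parp4 at -0.19. Parp3, which acts in repair of DNA breaks, held 1 called probe set among the 25 of this list (1451969_s_at). It was at 2.94, 2.43 and 2.96 in the young and 4.60, 4.74 and 4.60 in the old samples. The young values lay below the lower quartile of the arrays, so the size of this difference is not given, and the other probe sets of Parp3, also dim, were not called. Tiparp, a mono-ADP-ribosyltransferase that responds to the aryl hydrocarbon receptor, was at -0.05 at its brightest probe set and at -0.59 and -0.83 at the dimmer ones.

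**Figure D2:**
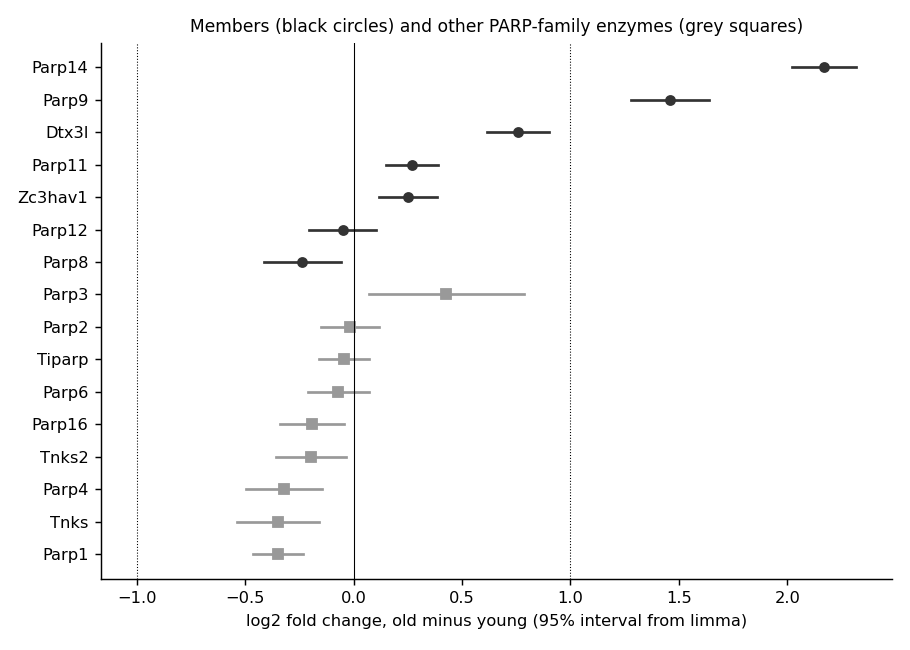
Log2 fold change, old minus young, of the 7 members (black circles) and 9 other PARP-family enzymes (grey squares) at the brightest probe set of each gene, with the 95% interval from limma and dotted lines at a fold of 2. The intervals of Parp14 and Parp9 lie wholly above 1, that of Dtx3l lies between 0.61 and 0.90, and the points of the other genes lie between -0.35 and 0.43.

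Of 12 measured genes linked to ADP-ribose, chiefly to its removal or reading, none was called by limma or SAM, with none higher and 4 lower before adjustment at p under 0.05, and the median was -0.10. Macrod2, a hydrolase of single ADP-ribose units, had -0.28 (adjusted p = 0.0087 from limma), the macrodomain histone gene Macroh2a2 -0.40 (adjusted p = 0.029), Gdap2 -0.19 and Oard1 -0.17. Macrod2 was at -0.08 (adjusted p = 0.27) with its probe sets averaged and at -0.10 (adjusted p = 0.56) without probe sets shared between transcripts. Of the 4 Deltex ligases related to Dtx3l, none was called by limma or SAM, with 1 higher and 0 lower at p under 0.05 before adjustment. Dtx1 had 0.41 (standard error 0.07, adjusted p = 0.0054 from limma), Dtx2 0.07, Dtx3 -0.02 and Dtx4 0.02, and averaged over probe sets Dtx2 was at -0.11 and Dtx4 at -0.17. Of 13 measured genes listed for the supply or use of NAD, the substrate of these enzymes, there was no call by either test, although 3 were higher and 1 lower before adjustment at p under 0.05. Nnmt had 0.41 (adjusted p = 0.018 from limma), Naprt 0.20 (adjusted p = 0.048), the rate-limiting enzyme Nampt 0.17 and the nuclear enzyme Nmnat1 -0.18. Nampt was at 0.08 with its probe sets averaged, and Nmnat1 was at -0.01 when averaged and turned to 0.16 without shared probe sets.

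Among 20 genes that work with the zinc-finger antiviral protein or decay RNA, there was again no call by either test, although 4 were higher and 7 lower before adjustment at p under 0.05, where 16.9% and 20.4% of all genes were. Trim25, the ubiquitin ligase that the antiviral protein needs, was the nearest to a call. Its mean log2 intensity was 9.48 ± 0.028 at 9 weeks and 10.25 ± 0.063 at 32 weeks (SD, n = 3 each), a difference of 0.76 log2 units (standard error 0.06; limma, adjusted p = 2.1e-04). The nuclease cofactor Khnyn was at 0.06 with overlapping groups. The exosome subunits Exosc3 and Exosc2 had -0.51 and -0.49 (adjusted p = 0.0026 and 0.0030), and the decapping enzyme Dcp2 had 0.38 (adjusted p = 0.0034). Averaged over probe sets, Trim25 was at 0.59 (adjusted p = 5.4e-04 from limma), Exosc2 at -0.08 (adjusted p = 0.26) and Dcp2 at 0.23 (adjusted p = 0.076). Without the probe sets shared between transcripts, Trim25 had no value. The list held members on either side of 0, and its median was -0.06.

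Of 14 interferon signalling genes, 3 were called higher and none lower by limma, with a median of 0.11. The transcription factor gene Irf7 had a mean log2 intensity of 5.02 ± 0.32 at 9 weeks and 7.35 ± 0.21 at 32 weeks (SD, n = 3 each), 2.33 log2 units apart (limma, adjusted p = 2.2e-04), Irf9, which encodes the DNA-binding subunit of the factor that type I interferon activates, had a log2 fold change of 1.14 (adjusted p = 8.6e-05 from limma), and the feedback inhibitor Socs3 had 1.08 (adjusted p = 2.7e-04). Another feedback inhibitor, Socs1, had -0.55 (adjusted p = 0.0014). The receptor genes Ifnar1, Ifngr1 and Ifngr2 were at 0.06, -0.05 and -0.11, and Ifnar2 was at -0.20 (adjusted p = 0.045). Jak1 was at 0.19 at its brightest probe set and was called lower at the others, where it reached -1.28. Of 6 measured interferon ligand genes, none was called by limma or SAM, with 2 higher and 0 lower at p under 0.05 before adjustment. Ifnz had 0.96 (adjusted p = 2.7e-04 from limma) and Ifna2 0.53 (adjusted p = 0.0038), while Ifna11 had 0.12 and Ifnb1 -0.12 with overlapping groups. The young mean of Ifna2, 3.24, was near the lower quartile of the arrays. The probe sets of Ifna2, Ifnb1 and Ifna11 were dim, at 3.77, 3.11 and 2.20 in the old samples.

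**Figure D3:**
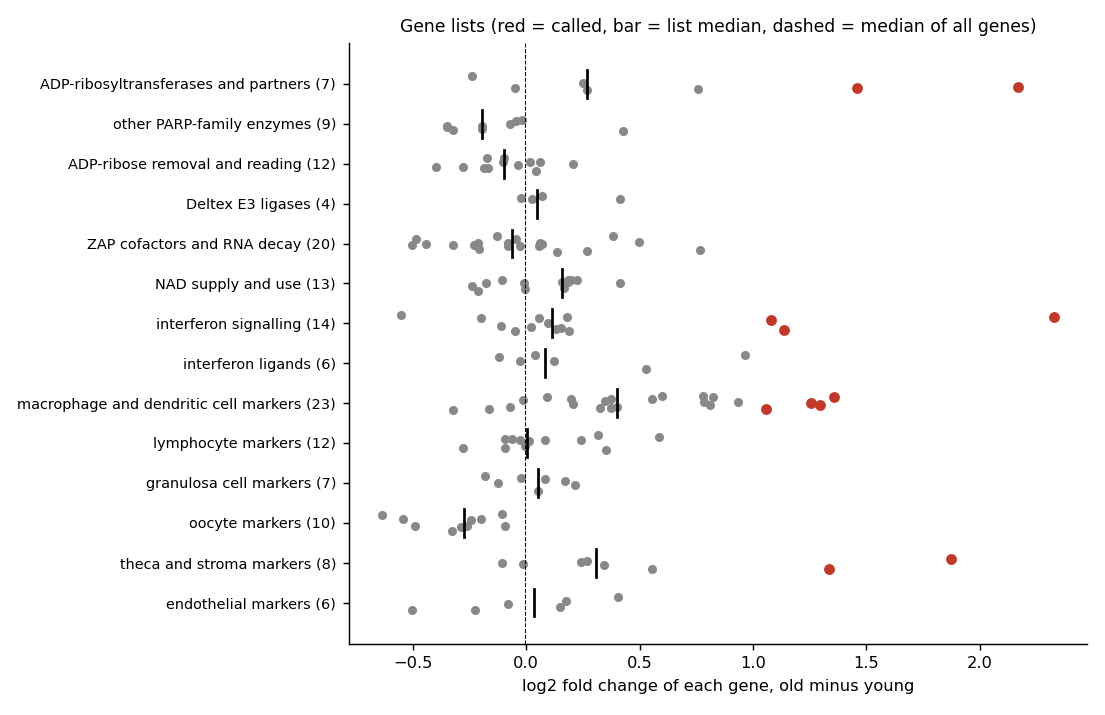
Log2 fold change of each measured gene, old minus young, by list (number of genes in brackets), with called genes in red, a bar at the list median and a dashed line at the median of all 18194 genes. The calls are in the members, the interferon signalling genes, the macrophage markers and the theca and stroma markers, and the medians of the other PARP-family enzymes (-0.19), the ADP-ribose removal and reading list (-0.10), the RNA decay genes (-0.06) and the oocyte markers (-0.27) lie below 0.

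Some markers of cell types also differed on the same arrays. Of 23 macrophage and dendritic cell markers, limma called 4 higher, Ctss (1.36), Mpeg1 (1.30), Cd52 (1.26) and Ms4a7 (1.06), and none lower, with 16 higher and 1 lower at p under 0.05 before adjustment and a median of 0.40. The groups did not overlap in 15 of the markers with higher and 1 with lower old values, against 18.9% and 23.7% of all genes. Among those higher but under the fold of 2 were Tyrobp (0.93), Ptprc (0.82), Fcer1g (0.81) and Csf1r (0.78). Lyz2 was lower without overlap (-0.32, adjusted p = 0.016 from limma), Mrc1 had -0.17, Cd14 -0.07 and Itgam -0.01 with overlapping groups, and Fcgr1 (0.09), Cd68 (0.20) and Adgre1 (0.20) also overlapped. Ms4a7 was under the fold of 2 without young replicate 1 (0.92) and without old replicate 3 (0.997). The summed intensity of the 23 markers was between 766 and 790 in the young and between 1212 and 1284 in the old samples, 1.61 times higher, while Itgam and Cd163 lay below the lower quartile of the arrays. Such cells can express Parp14 and Parp9, and their part in the differences of the members was not tested. The 12 lymphocyte markers had no call by limma or SAM (3 higher and 1 lower at p under 0.05 before adjustment), a median of 0.00 and a summed intensity 0.947 times that of the young samples, with Nkg7 at 0.59, Ms4a1 at -0.28 (-0.10 when its probe sets were averaged), Cd3d at 0.35 and Cd3g at 0.32. Of these markers, 5 lay below the lower quartile of the arrays. Ms4a1 was the brightest, with a young mean of 7.29, and weighed most in the sum. The young means of Nkg7 (3.10) and Cd3g (2.07) were below that quartile, so the sizes of their differences are uncertain. Of 8 theca and stroma markers, the steroid synthesis genes Star (1.87) and Cyp11a1 (1.34) were called higher, Col1a1 had 0.55 and Col3a1 0.34, Pdgfra (-0.02) and the theca enzyme gene Cyp17a1 (-0.11) overlapped, and the sum was 1.30 times higher. Averaged over its probe sets, Cyp11a1 was at 0.48 and not called. The labelled tissue was borne out by bright granulosa cell and oocyte markers. The summed intensity of 7 granulosa cell markers was between 19330 and 19795 in the young and between 19330 and 19888 in the old samples, with Fst at 0.21 (0.04 when averaged), Amh at -0.18, Fshr at 0.17 and Foxl2 at -0.12. None of 10 oocyte markers was called by limma or SAM (0 higher and 8 lower at p under 0.05 before adjustment). All 10 were lower in the old samples without overlap, as were 23.7% of all genes. With the adjusted p alone, 8 passed as lower, against 13.3% of all genes. The sum of the 10 markers was between 22926 and 23547 in the young and between 19130 and 19507 in the old samples. Zp3 was at -0.54, Kit at -0.49 (-0.24 when averaged), Nlrp5 at -0.33 and Zp1 at -0.29. The part of this difference in the values of the members was not tested. Of 6 endothelial markers none was called by limma or SAM (2 higher and 1 lower at p under 0.05 before adjustment), with Emcn at -0.50, Kdr at 0.41, Tek at 0.17 and Pecam1 at -0.22.

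The genes most like the called members were found by the Euclidean distance between profiles, each gene's 6 log2 values less their mean over the 6 arrays. Nearest to Parp14 were Oas1a, an oligoadenylate synthetase (distance 0.21 log2 units, log2 fold change 2.14), Btg2, an antiproliferative gene (0.26 and 1.98), and Zfp36, which encodes an RNA decay factor (0.30 and 2.25). Nearest to Parp9 were Herc6, a ligase of the ISG15 system (0.15 and 1.43), the guanylate-binding protein gene Gbp7 (0.21 and 1.57) and Gm45351 (0.23 and 1.45). Interferon-induced genes were thus nearest to both, and 2 immediate-early genes stood among the neighbours of Parp14. With 3 samples per age, the profiles reflect chiefly the step between the ages, and likeness here is a description over 6 arrays.

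**Figure D4:**
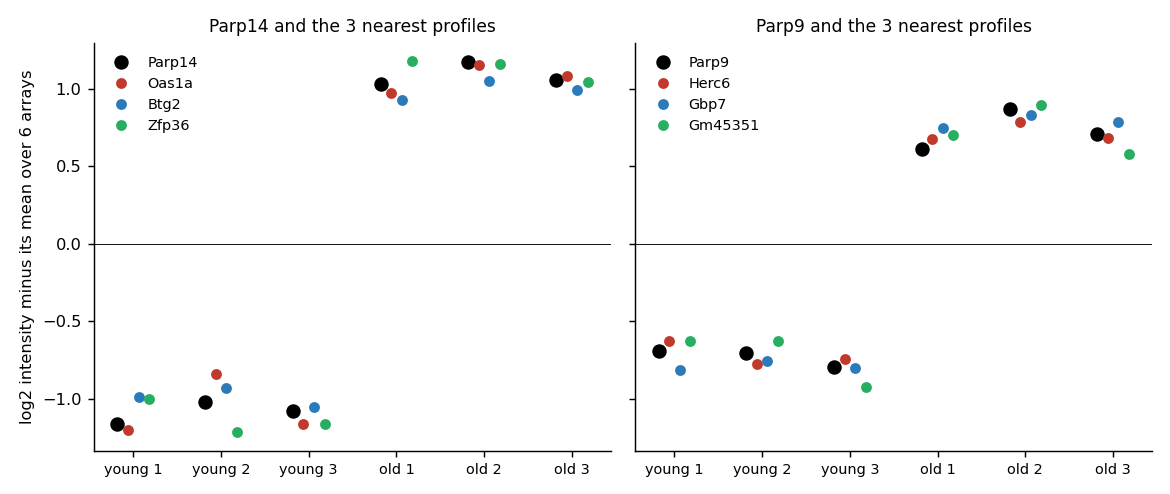
Log2 intensity less its mean over the 6 arrays (vertical axis) in each of the 6 samples for Parp14 (left, black) and Parp9 (right, black) with the 3 genes nearest to each, 1 point per array. The points of each group of 4 genes lie together below 0 in the young and above 0 in the old samples, with a larger step for Parp14 than for Parp9.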

How the data were processed

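RNA of 6 samples was measured on Affymetrix mouse expression arrays. The authors ran RMA, of unstated version, and deposited intensity values on a linear scale, from 2.62 to 13880, and log2 of these was taken with no pseudocount. Gene names came from the annotation table of the array (34958 probe sets with 1 symbol, 932 with several, 9211 not listed), brought up to date by gene ID against RefSeq for GRCm38.p6, where 18033 of 18195 IDs were found. Only probe sets with 1 symbol were tested. Old and young samples were compared with lmFit and eBayes of limma 3.58.1, run in R 4.3.3 (Benjamini-Hochberg over 18194 genes, or over probe sets where stated). SAM, the test of the study, was written from its published description and run as an alternative. Data were also simulated for this comparison over 18194 genes. There limma recovered 97 of 100 genes changed by 1.5 log2 units and 100 of 100 changed by 3. SAM recovered the same numbers. Both of these sizes lie above the fold of 2 that a call requires. Recovery of differences nearer to that fold, or under it, was not tested. The share of false calls on the real arrays, where the control probe sets differed between the ages, was not tested. The median SD within groups was 0.089 log2 units, arrays have no depth, and precision is limited by having 3 arrays an age.

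The members and lists were chosen with earlier results of these data known. The genes named are all members with every probe set, the 3 nearest profiles of each called member, and in each list the called genes or, where fewer than 4, those with the smallest p up to 4. Others (Parp3, Tiparp, Khnyn, Jak1, the interferon receptors, the uncalled macrophage markers, Cyp17a1, Pdgfra and the chromosomal neighbours) were picked with their values in view. The labels give no batch.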

Additional observations from a re-analysis of the deposited data

How the results depend on the processing

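The calls of Parp14 and Parp9 held in the 17 alternatives in which each was fitted, with log2 fold changes from 1.65 to 2.23 and from 1.39 to 1.53. Among these, a lower fold minimum or none could not undo a call. Averaging probe sets could not change the value of Parp9, which has a single one. Neither a member gene nor a member probe set was called lower in any alternative. Leaving out 1 sample left 2 member genes called higher and 3 to 4 member probe sets, while over all genes 116 to 122 were called higher and 21 to 26 lower. The 3' minus 5' difference kept its direction, from 1.02 to 1.05 for Gapdh and from 1.01 to 1.08 for beta-actin.

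The counts moved chiefly with the fold minimum. At a fold of at least 1.5, limma called 383 genes higher and 234 lower, 6 member probe sets higher, and 5 genes around the members and 10 macrophage markers higher, with Dtx3l then called. With no fold minimum these were 1835 and 2420 genes, 8 member probe sets and 5 member genes higher, 12 genes around the members higher and 14 lower, and 13 macrophage markers higher and 1 lower. With the probe sets of each gene averaged, 13 genes were called lower, against 23, and Herc6 (0.90), Socs3 (0.92), Ms4a7 (0.69) and Cyp11a1 (0.48) were under the fold of 2. Counting a gene by at least 1 called probe set gave 187 lower genes and, among the genes around the members, 1 lower, Jak1. Without the probe sets shared between transcripts, 0 genes around the members were called higher, against 3, since Irf7 and Irf9 then had no probe set and Socs3 was at 0.84.

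The replicate number shared by a young and an old sample is only a number. The deviations of same-numbered samples correlated at 0.05, -0.00 and 0.04 over genes, so they were not taken as pairs. With the replicate block, 2 member genes and 3 member probe sets were called higher, and 117 genes higher and 23 lower over all genes. Weak signal limits the dimmer probe sets of Parp14 and Parp3.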
